A study of Mus musculus with 8 samples.

Results

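The long noncoding RNAs described here are the hosts of small nucleolar RNAs and microRNAs, the antisense and opposite-strand RNAs, and a set of nuclear RNAs, in the embryonic mouse retina with and without a working Ezh2 gene. They were chosen by name from a deposited table of 16096 genes: numbered Snhg genes, Mir genes ending in hg, names that end in a digit followed by os or as, with or without a final digit, and Gas5, Malat1, Neat1, Miat, Tug1, Rmst and Sox2ot. Hoxb3os and Igf2os, which the name rule also matched, were left out beforehand. The rule used no measured value and left 32 rows with 31 symbols. Of these, 9 are hosts of small nucleolar RNAs, 2 are hosts of microRNAs, 6 are nuclear or other long noncoding RNAs and 15 carry an antisense name. Vax2os occurs in 2 rows, called row 1 and row 2 by falling total count. The annotation (GENCODE M21, on mm10) classes 5 of the rows as protein coding, namely Zbtb8os, Znrd1as, Fancd2os, Slc7a6os and Snhg11.

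The tissue was peripheral retina dissected at embryonic day 16.5 from C57BL/6 mice. The 4 libraries of the conditional knockout, Ezh2fl/null, came from Pax6alpha-Cre:Ezh2fl/null embryos, with a floxed and a null allele of Ezh2. The 4 control libraries, Ezh2fl/+, came from Pax6alpha-Cre:Ezh2fl/+ embryos, with a floxed and a wild type allele. Both groups carry the Cre transgene, so the controls also lose an Ezh2 copy wherever Cre acts. The Pax6 alpha enhancer is active in progenitors of the distal retina, so vessels, microglia and other cells of outside origin in the same tissue are not recombined by it. Such cells still carry the null allele beside an intact floxed allele in Ezh2fl/null embryos. In Ezh2fl/+ embryos they carry the floxed and the wild type allele, so they also differ in Ezh2 copy between the groups. The labels name no embryo, pool or litter for a library, so each p-value speaks of the spread among these 8 libraries, which may be partly technical.

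Ezh2 is the enzyme of Polycomb repressive complex 2, which methylates lysine 27 of histone H3 and keeps many developmental genes silent. Hosts of small nucleolar RNAs are spliced transcripts whose introns are trimmed into the guide RNAs that direct modification of ribosomal RNA; the spliced remainder of several of them, Gas5 among these, is degraded by nonsense-mediated decay. Malat1 lies in nuclear speckles and Neat1 is the scaffold of paraspeckles. Antisense RNAs are transcribed from the strand opposite a neighbouring gene, and in the developing retina several of them lie beside the homeobox genes that pattern the eye.

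Many hosts of small nucleolar RNAs start transcription at a C within a run of pyrimidines, the feature of 5′ terminal oligopyrimidine genes. The bases around the annotated start were therefore searched in the RefSeq promoter table (GRCm38.p6), which matched 24 of the 31 symbols with 31 promoters. The motif was a C followed by 4 bases that are each C or T, on the transcribed strand. It lay exactly at the annotated start in 2 of the 8 promoters of hosts of small nucleolar RNAs (25%), in 3 of the 31 promoters of all members (9.68%) and in 823 of the 32851 promoters in the table (2.51%). Within 5 bases of the start on either side it lay in 4 of the 8 host promoters, in 25.8% of members' promoters and in 18.3% of all promoters; this wider search was added after the first. The stretch from 10 bases before the start to 20 bases from it on is shown for 5 hosts, with capitals for the motif and the pyrimidines that directly follow it. A pyrimidine before the motif stays in lower case, and Snhg1, with no match within 5 bases, has no capitals. These lie at chr1:161035156-161035185 (plus strand), chr2:26640225-26640254 (minus strand), chr4:132308668-132308697 (plus strand), chr4:132353667-132353696 (minus strand) and chr19:8723477-8723506 (plus strand).
Gas5, the second annotated start: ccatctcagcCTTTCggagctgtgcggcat
Snhg7: gatgctcggcCTCTCggcagccatggcggc
Snhg12: ttctcagtcCTTTCTCgcttcatccgcggt
Snhg3: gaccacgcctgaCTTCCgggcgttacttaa
Snhg1: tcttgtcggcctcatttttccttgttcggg

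The 2 microRNA hosts carry 7 microRNAs whose main arms are shown because they define the families made from these transcripts. Mature sequences are those of RefSeq (GRCm38.p6), with the seed, bases 2 to 8, in capitals. From Mir17hg (chr14:115042879-115046727, plus strand), miR-17-5p and miR-20a-5p share the seed AAAGUGC and miR-19a-3p and miR-19b-3p share GUGCAAA, while miR-18a-5p and miR-92a-3p each have another. Mir22hg (chr11:75461539-75466676, plus strand) carries miR-22-3p.
miR-17-5p: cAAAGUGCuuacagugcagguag
miR-20a-5p: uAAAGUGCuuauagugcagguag
miR-19a-3p: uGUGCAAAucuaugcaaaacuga
miR-19b-3p: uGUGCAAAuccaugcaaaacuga
miR-18a-5p: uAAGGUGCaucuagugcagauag
miR-92a-3p: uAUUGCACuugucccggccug
miR-22-3p: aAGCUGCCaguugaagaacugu

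The libraries held 13994825 to 18391647 counts, and the members together took 0.213 to 0.255% of them in Ezh2fl/null retina and 0.224 to 0.253% in Ezh2fl/+ retina. Ezh2 itself, the targeted gene, was at 276, 251, 255 and 220 CPM (counts scaled to a common, normalized library size) in Ezh2fl/null libraries and at 235, 230, 197 and 207 CPM in Ezh2fl/+ libraries. Its log2 fold change was 0.21 ± 0.07 (SE) and was not called (edgeR adjusted p = 0.0701); a whole-gene count does not show whether floxed exons are missing, so it does not check the genotype. Markers of the embryonic retina were present in every library; among them Crx and Otx2, genes of photoreceptor precursors, rose, and Pou4f2, a gene of ganglion cells, fell. Ezh2fl/null libraries 2 and 3 were female by Xist, with 1874 and 1714 counts, and the other 6 libraries were male. Some markers of other cells differed between the groups: 4 of 7 tested microglial markers (Cx3cr1, Tyrobp, C1qb and P2ry12) and 3 of 8 tested mesenchymal markers (Twist1, Foxc1 and Pdgfra) rose. The other 5 tested mesenchymal markers, Col1a1, Col1a2, Col3a1, Dcn and Postn, were not called. Over all genes tested, 8.35% were called higher and 3.46% lower. Summed marker levels are CPM on total counts. The summed microglial level was 42.0 to 49.2 CPM in Ezh2fl/null libraries against 31.4 to 35.7 CPM in Ezh2fl/+ libraries, and the mesenchymal sum was 26.0 to 79.6 CPM against 22.8 to 53.0 CPM. Of 3 tested endothelial markers Kdr fell and Cldn5 rose, with sums of 263 to 312 CPM in Ezh2fl/null libraries and 328 to 357 CPM in Ezh2fl/+ libraries. Kdr made up most of that sum, averaging 281 CPM in Ezh2fl/null libraries and 332 CPM in Ezh2fl/+ libraries. The other 3 markers in the table, Cldn5, Pecam1 and Cdh5, had higher means in Ezh2fl/null libraries. In Ezh2fl/null and Ezh2fl/+ libraries Cldn5 averaged 10.2 and 7.52 CPM, Pecam1 0.597 and 0.524 CPM, and Cdh5 0.474 and 0.322 CPM. The sum thus follows Kdr and is not read as a level of vessels. No tested marker of pigment epithelium, lens or erythroid cells was called; sums of 9 lens markers (crystallins, Bfsp1, Bfsp2 and Mip) were highest in Ezh2fl/null library 2, at 11.4 CPM, and Ezh2fl/+ library 1, at 14.4 CPM, against at most 4.70 CPM in the other 6. Erythroid sums varied within each group, over 94.1 to 887 CPM in Ezh2fl/null libraries and 153 to 1322 CPM in Ezh2fl/+ libraries.

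Of the 32 members, 30 had enough counts to be tested. Sox2ot rose, Dlx1os and row 1 of Vax2os fell, and 27 were not called (edgeR quasi-likelihood test, 4 against 4 libraries, Benjamini-Hochberg adjustment over 15014 genes, adjusted p under 0.05). Members called higher were thus 3.33% of those tested, against 8.35% of all genes, and members called lower were 6.67%, against 3.46% of all genes. The 4 and 4 libraries did not overlap for 4 tested members, 13.3% of them, against 16.3% of all genes. The calls are 1 and 2 genes, and nothing particular to the members is read from these shares. The median log2 fold change was -0.03 for the members and -0.01 for all genes tested. The 95% limits lay within 1.5-fold in either direction for 20 of the 30 members, against 11989 of all 15014 genes tested. Unadjusted edgeR p was under 0.05 for 8 of the 30 members, against 3607 of all 15014 genes. Nothing particular to the members is read from these counts either. The same all-gene counts are the background for such counts in the classes and lists below. In bulk tissue, fewer cells of a type and less RNA per cell cannot be told apart.

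**Figure D1:**
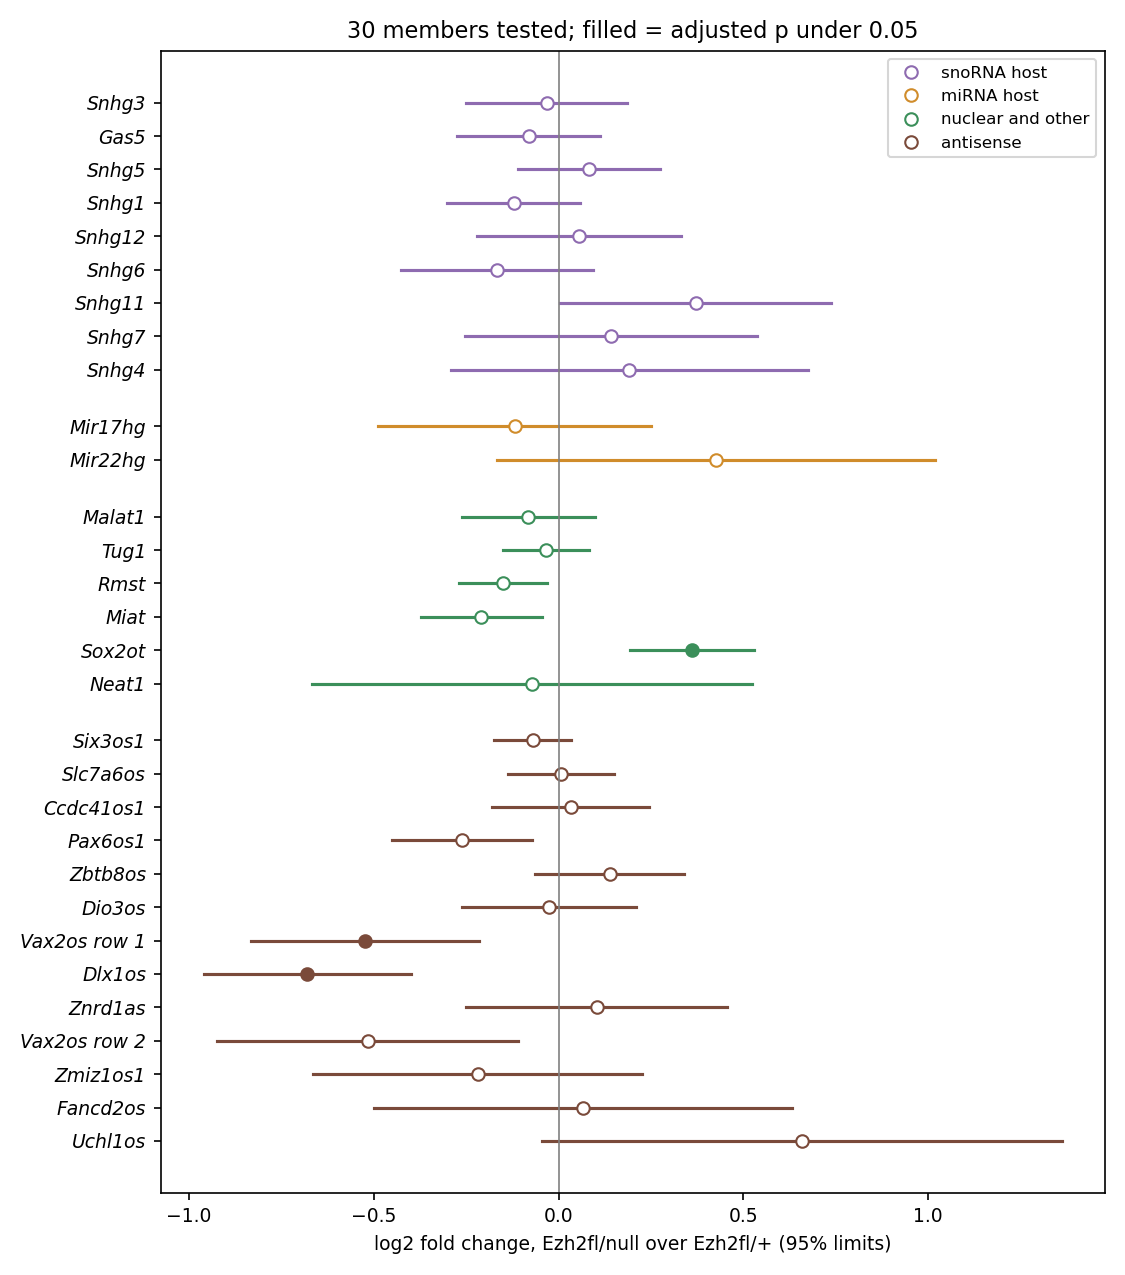
Log2 fold change (Ezh2fl/null over Ezh2fl/+) of the 30 tested members with 95% limits, grouped by class and ordered within a class by mean CPM; filled points have an adjusted p under 0.05. Only Sox2ot on the right and Dlx1os and Vax2os row 1 on the left are filled, and the hosts of small nucleolar RNAs lie between -0.17 and 0.37.

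Levels per length, in the authors' FPKM (fragments scaled by gene length and depth), spanned more than 3 orders of magnitude among the members. Malat1 was the most abundant, at a mean of 159 FPKM in Ezh2fl/null retina and 166 FPKM in Ezh2fl/+ retina, and its mean over all libraries was above that of 99.0% of the genes in the table. Snhg3 followed at 85.2 FPKM in Ezh2fl/null and 85.7 FPKM in Ezh2fl/+, then Tug1 at 45.1 FPKM in Ezh2fl/null and 45.5 FPKM in Ezh2fl/+. Six3os1, at 30.5 FPKM in Ezh2fl/null and 31.5 FPKM in Ezh2fl/+, was the highest antisense member. The level of Snhg3 may include reads of the guide RNA Snora73a inside it, given below. Snora73a had 5184 counts over the Ezh2fl/null libraries, against 5423 for Snhg3, and 4960 over the Ezh2fl/+ libraries, against 5163. The rank of Snhg3 is therefore not read as that of its spliced transcript. At the other end Neat1 had 0.0439 FPKM in Ezh2fl/null retina and 0.0446 FPKM in Ezh2fl/+ retina, above only 0.118% of the table's genes. Malat1 alone made up 44.5 to 51.4% of all member counts in a library, Tug1 14.2 to 18.5% and Six3os1 16.6 to 18.6%.

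**Figure D2:**
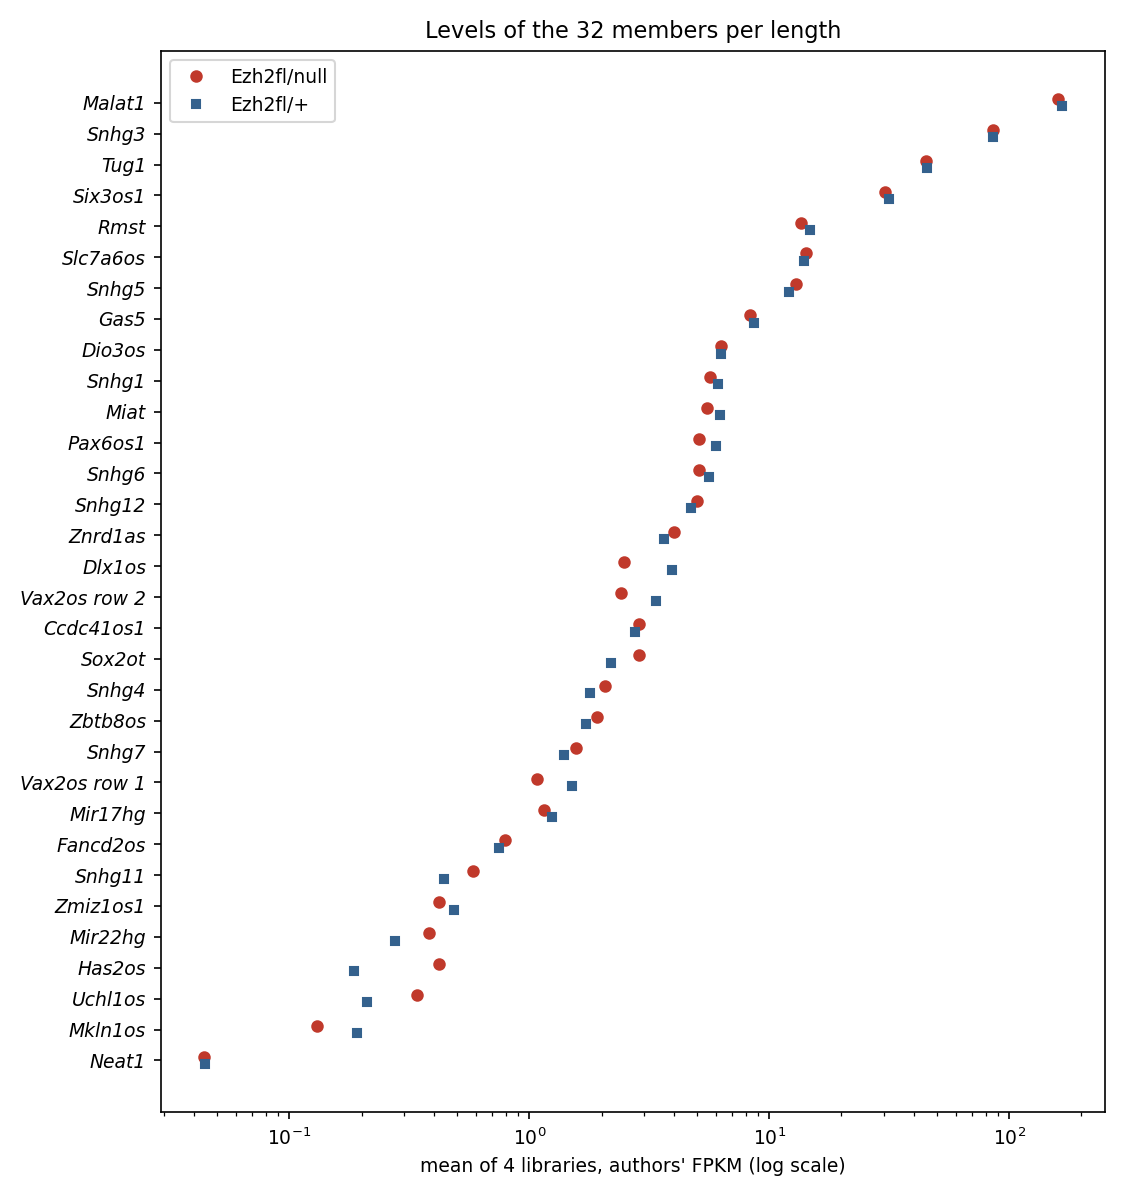
Mean FPKM of each of the 32 members in Ezh2fl/null (circles) and Ezh2fl/+ (squares) libraries, 4 each, on a log axis, ordered by the mean over all libraries. The pairs of points nearly coincide for Malat1, Snhg3 and Tug1, and stand apart for Dlx1os, at 2.49 FPKM in Ezh2fl/null and 3.92 FPKM in Ezh2fl/+, and for Has2os, at 0.42 FPKM in Ezh2fl/null and 0.186 FPKM in Ezh2fl/+.

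None of the 9 hosts of small nucleolar RNAs was called by edgeR, and 1 of them, Snhg11, had an unadjusted p under 0.05. Their log2 fold changes ran from -0.17 to 0.37 with a median of 0.05, and for 7 of the 9 the 95% limits lay within 1.5-fold in either direction. Snhg3, which carries the guides Snora73a and Snora73b, was at 98.3, 82.6, 71.5 and 81.4 CPM in Ezh2fl/null libraries and at 102, 71.2, 86.0 and 82.5 CPM in Ezh2fl/+ libraries. The 2 groups cover the same range, and the log2 fold change was -0.03 (95% limits -0.25 to 0.19). Gas5, the host of many box C/D guides, was at 36.2, 28.3, 29.9 and 29.2 CPM in Ezh2fl/null libraries and at 37.1, 34.6, 28.5 and 31.1 CPM in Ezh2fl/+ libraries. Library 1 was the highest of each group, and the log2 fold change was -0.08 (95% limits -0.27 to 0.11). Snhg5 had a log2 fold change of 0.08 and Snhg1 of -0.12, with adjusted p of 0.651 and 0.433. Snhg11, a neuronal host gene, averaged 4.91 ± 1.24 CPM in Ezh2fl/null libraries and 3.81 ± 0.424 CPM in Ezh2fl/+ libraries (SD, n = 4 each). Its libraries overlapped, and the log2 fold change of 0.37 ± 0.17 (SE) was not called (edgeR adjusted p = 0.201). Without Ezh2fl/null library 4, the highest at 6.36 CPM, the log2 fold change was 0.22 with an adjusted p of 0.452.

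No tested small nucleolar RNA gene of these hosts and no tested gene for the proteins that bind such RNAs was called in either direction. The annotation places 34 genes classed as small nucleolar or Cajal body RNA inside the hosts or within 1000 bases of them, of which 2 carry microRNA names (Mir5117 and Mir1949); 16 are rows of the table, and none of the 8 tested was called by edgeR; Gm22357, inside Gas5, had the lowest unadjusted p (0.0113, log2 fold change -0.53, adjusted p = 0.079). Snora73a averaged 79.8 ± 10.7 CPM in Ezh2fl/null libraries and 82.2 ± 13.3 CPM in Ezh2fl/+ libraries, and Snora73b averaged 54.7 ± 9.30 CPM in Ezh2fl/null libraries and 53.2 ± 7.94 CPM in Ezh2fl/+ libraries (SD, n = 4 each). Snora73a was at 93.9, 79.9, 68.0 and 77.4 CPM in Ezh2fl/null libraries and at 100.1, 68.2, 81.9 and 78.7 CPM in Ezh2fl/+ libraries, close to the count of Snhg3 in each library. How much of the Snhg3 count is guide RNA was not tested. Column-purified RNA holds short RNAs poorly, and reads of a host intron cannot be told from those of its guide RNA. Of 12 genes for proteins of small nucleolar ribonucleoproteins, such as Fbl and Dkc1, 0 were called, with 2 at an unadjusted edgeR p under 0.05. Their log2 fold changes were negative for 11 (10 when scaled by library size alone), with a median of -0.10. Among all 15014 genes tested 7866 were negative (6753 when scaled by library size alone), with a median of -0.01. Whether the 12 genes fell as a set was not tested. Of 10 genes of nonsense-mediated decay, Upf1, its helicase, was called lower (log2 fold change -0.20 ± 0.06 SE, edgeR adjusted p = 0.0327) and 9 were not called. That call was lost in 10 of 20 alternative settings, where its adjusted p reached 0.177.

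Neither microRNA host was called. Mir17hg, the host of the miR-17 to miR-92a cluster shown above, was at 4.89, 4.59, 3.28 and 3.46 CPM in Ezh2fl/null libraries and at 5.84, 3.99, 3.72 and 4.23 CPM in Ezh2fl/+ libraries. The groups overlap, with a log2 fold change of -0.12 (95% limits -0.49 to 0.25). Mir22hg rested on 47 counts over the Ezh2fl/null libraries and 33 over the Ezh2fl/+ libraries, and its log2 fold change of 0.43 had 95% limits from -0.17 to 1.02, so a change of that size was not detectable at this depth. Mature microRNAs were not measured. Of 13 genes of microRNA processing, Dicer1 among them, 0 were called by edgeR, 2 had an unadjusted p under 0.05, and the median log2 fold change was -0.02.

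Sox2ot was the only nuclear or other long noncoding RNA that was called, and it rose. This transcript spans the Sox2 gene on the same strand (chr3:34104270-34682619, plus strand) and shares no exon bases with it in the annotation. Sox2ot was at 26.1, 25.5, 24.2 and 22.4 CPM in Ezh2fl/null libraries and at 21.1, 20.0, 18.6 and 17.0 CPM in Ezh2fl/+ libraries. Every Ezh2fl/null library lay above every Ezh2fl/+ library, with a log2 fold change of 0.36 ± 0.08 (SE; 95% limits 0.19 to 0.53; edgeR adjusted p = 0.00638). With male libraries alone (2 against 4) the log2 fold change was 0.35 and the adjusted p 0.0535. Sox2, which keeps retinal progenitors dividing and able to make neurons, was at 182, 155, 169 and 163 CPM in Ezh2fl/null libraries and at 161, 176, 157 and 159 CPM in Ezh2fl/+ libraries. Its groups overlap and it was not called (log2 fold change 0.03, 95% limits -0.08 to 0.15). The levels of Sox2ot stand beside the higher microglial sums and the overlapping mesenchymal sums given above, whose part in the result was not tested.

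The other 5 nuclear members were not called. Malat1 was at 1135, 974, 1032 and 1274 CPM in Ezh2fl/null libraries and at 1299, 1072, 1103 and 1200 CPM in Ezh2fl/+ libraries; the groups overlap, with a log2 fold change of -0.08 (95% limits -0.26 to 0.10). Tug1, first described as an RNA needed for normal photoreceptors, averaged 373 ± 24.3 CPM in Ezh2fl/null libraries and 382 ± 14.9 CPM in Ezh2fl/+ libraries, with 95% limits of -0.15 to 0.08. It shares 483 exon bases with Morc2a on the other strand, whose log2 fold change was -0.01. Neat1 averaged 0.902 ± 0.22 CPM in Ezh2fl/null libraries and 0.927 ± 0.279 CPM in Ezh2fl/+ libraries (SD, n = 4 each), and its 58 counts in each group left 95% limits of -0.67 to 0.52. Of 10 genes for paraspeckle proteins 0 were called by edgeR, 3 had an unadjusted p under 0.05, and the median log2 fold change was -0.09.

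Miat and Rmst lay close to the threshold. Miat, a nuclear RNA of neurons also called Gomafu, was at 48.4, 47.9, 48.8 and 56.8 CPM in Ezh2fl/null libraries and at 61.3, 61.0, 50.1 and 61.0 CPM in Ezh2fl/+ libraries. The groups overlap because a single library on each side stood apart, Ezh2fl/null library 4 and Ezh2fl/+ library 3. The log2 fold change of -0.21 ± 0.08 (SE) was not called with all 8 libraries (edgeR adjusted p = 0.101), and was called without Ezh2fl/null library 4 (-0.27, adjusted p = 0.0228) or without Ezh2fl/+ library 3 (-0.28, adjusted p = 0.0227). It was -0.15 with sex as a covariate (adjusted p = 0.456) and with male libraries alone (adjusted p = 0.462), and over all 20 alternative settings the adjusted p ran from 0.0227 to 0.462. Rmst, a neurogenic RNA that in human cells binds SOX2, was at 89.0, 96.8, 99.1 and 87.6 CPM in Ezh2fl/null libraries and at 101, 97.3, 111 and 104 CPM in Ezh2fl/+ libraries. The groups overlap, the 2 female libraries being the higher ones of Ezh2fl/null, and the log2 fold change was -0.15 ± 0.06 (SE; edgeR adjusted p = 0.101). With sex as a covariate it was -0.23 with an adjusted p of 0.0421, and with male libraries alone -0.23 with an adjusted p of 0.0478. The smallest change of the 20 alternative settings was -0.11 without Ezh2fl/+ library 3, with an adjusted p of 0.276.

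Dlx1os fell together with its sense gene. Dlx1os (chr2:71516454-71537891, minus strand, Dlx1as in the annotation) was at 3.98, 3.55, 4.46 and 4.08 CPM in Ezh2fl/null libraries and at 6.22, 5.70, 7.86 and 6.07 CPM in Ezh2fl/+ libraries. The groups did not overlap, and edgeR gave a log2 fold change of -0.68 ± 0.13 (SE), with 95% limits of -0.96 to -0.40 and an adjusted p of 0.00278. Dlx1, a homeobox gene of ganglion cell and interneuron development, was at 14.6, 15.1, 18.2 and 22.2 CPM in Ezh2fl/null libraries and at 28.2, 31.0, 31.6 and 29.8 CPM in Ezh2fl/+ libraries. It fell by 0.78 ± 0.11 (SE) on the log2 scale (edgeR adjusted p = 0.000163). Its partner gene Dlx2 had a log2 fold change of -0.80 with an edgeR adjusted p of 0.00662. The call for Dlx2 was lost with sex as a covariate and with male libraries alone (edgeR adjusted p up to 0.0618). Dlx1os shares 335 of its 1630 exon bases (20.6%) with Dlx1, and, as the sources used here state no strand for the libraries, reads there cannot be assigned to either gene. Metap1d, which Dlx1os also overlaps from the other strand, without shared exon bases, averaged 12.3 ± 0.98 CPM in Ezh2fl/null libraries and 13.0 ± 1.22 CPM in Ezh2fl/+ libraries (SD, n = 4 each) and was not called. Dlx1os kept its call in all 20 alternative settings, with adjusted p between 0.00134 and 0.0253. Pou4f2, a marker of ganglion cells, was lower too, with a log2 fold change of -0.96 ± 0.10 (SE, edgeR adjusted p = 1.07e-05); its part in the lower Dlx1os was not tested.

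**Figure D3:**
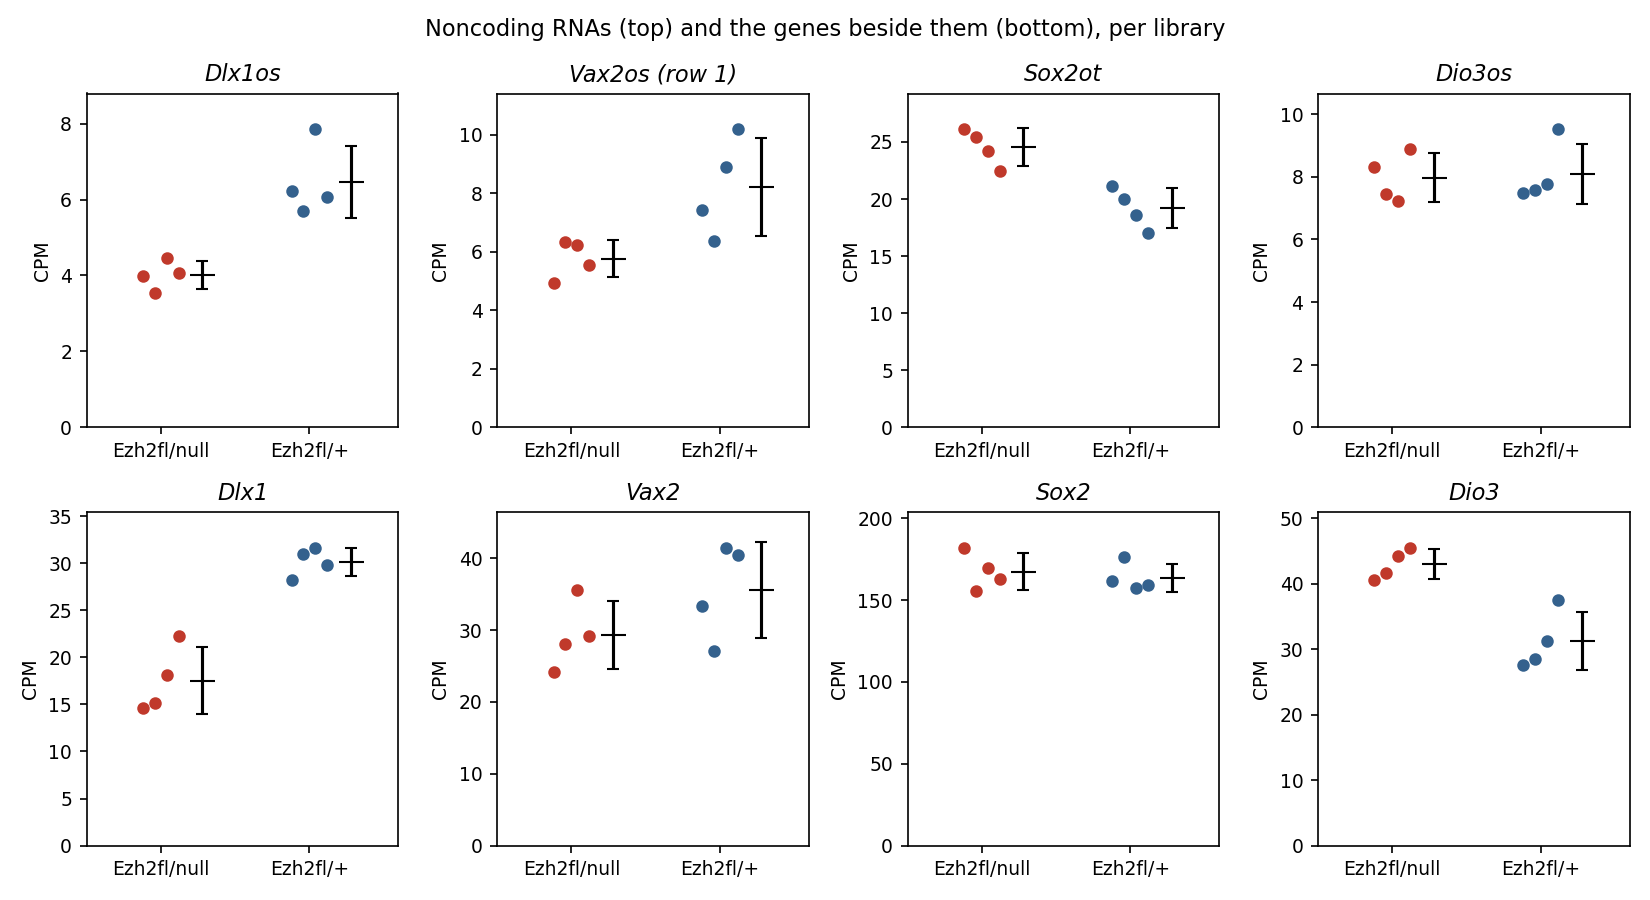
CPM in each library (points) with the mean and SD of 4 libraries (bars beside them) for Dlx1os, Vax2os row 1, Sox2ot and Dio3os in the top row and for Dlx1, Vax2, Sox2 and Dio3 below them. The groups separate for Dlx1os and Dlx1, for Sox2ot and not Sox2, and for Dio3 and not Dio3os.

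Vax2os, an RNA described in the mouse retina as a regulator of photoreceptor progenitor cycling, had a fold change of the same size in both of its rows. Row 1 (chr6:83692806-83712201, minus strand) was at 4.94, 6.34, 6.23 and 5.56 CPM in Ezh2fl/null libraries and at 7.41, 6.35, 8.91 and 10.2 CPM in Ezh2fl/+ libraries. The groups touch but did not overlap, since library 2 gave nearly the same value in each, and the log2 fold change was -0.52 ± 0.14 (SE; edgeR adjusted p = 0.0278). This call was lost without Ezh2fl/null library 1 (log2 fold change -0.45, adjusted p = 0.0868), without Ezh2fl/null library 4 (-0.51, 0.0561), without Ezh2fl/+ library 3 (-0.49, 0.0792) and without Ezh2fl/+ library 4 (-0.39, 0.109). Row 2, whose identifier has no position in the annotation used, averaged 2.12 ± 0.534 CPM in Ezh2fl/null libraries and 2.98 ± 0.394 CPM in Ezh2fl/+ libraries (SD, n = 4 each). Its log2 fold change was also -0.52, and it was not called (edgeR adjusted p = 0.102); with sex as a covariate it was -0.82 with an adjusted p of 0.0322. How reads were counted in the rows is not given, so whether they share reads is not known.

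Vax2, the homeobox gene of the ventral retina that Vax2os lies opposite to, without shared exon bases, was at 24.2, 28.1, 35.6 and 29.2 CPM in Ezh2fl/null libraries and at 33.4, 27.1, 41.5 and 40.4 CPM in Ezh2fl/+ libraries. The groups overlap, and the log2 fold change of -0.29 ± 0.13 (SE) was not called (edgeR adjusted p = 0.182; 0.0373 without Ezh2fl/+ library 2). Its paralogue Vax1 rose by 0.64 ± 0.16 (SE) on the log2 scale (edgeR adjusted p = 0.0145). The call for Vax1 was lost with sex as a covariate and with male libraries alone. It was also lost without the 2 libraries with the most lens crystallin counts (edgeR adjusted p = 0.079). RefSeq gives Vax2os 2 starts, with 17 and 9 CpG dinucleotides in the 300 bases around them, against a median of 7 over all promoters in the table. The first promoter (chr6:83712152-83712451, GRCm38.p6, minus strand) is shown with each CpG in capitals, because CpG density is a sequence feature tied to Polycomb binding in mammals. The promoter of Dio3os (chr12:110278019-110278318, GRCm38.p6, minus strand) is set beside it as a member that was not called and has 53 CpG dinucleotides. No other matched promoter of a member has as many.
Vax2os, the first annotated start: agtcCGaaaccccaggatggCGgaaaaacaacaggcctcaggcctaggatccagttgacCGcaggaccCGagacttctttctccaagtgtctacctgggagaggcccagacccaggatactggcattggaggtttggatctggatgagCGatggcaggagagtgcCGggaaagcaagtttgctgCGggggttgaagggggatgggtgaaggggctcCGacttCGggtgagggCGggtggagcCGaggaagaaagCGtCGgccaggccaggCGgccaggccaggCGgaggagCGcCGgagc
Dio3os: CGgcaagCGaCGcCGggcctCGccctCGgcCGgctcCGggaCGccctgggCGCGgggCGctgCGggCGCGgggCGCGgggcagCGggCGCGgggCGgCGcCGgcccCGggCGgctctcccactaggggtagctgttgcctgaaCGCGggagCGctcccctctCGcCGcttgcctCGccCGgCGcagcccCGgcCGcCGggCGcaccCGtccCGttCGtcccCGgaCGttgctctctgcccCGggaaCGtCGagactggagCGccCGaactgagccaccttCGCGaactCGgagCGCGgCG

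Over the 31 promoters of members the median ratio of observed to expected CpG was 0.779, and over the 8 of hosts of small nucleolar RNAs 0.897, against 0.384 over all promoters in the table. Both Vax2os promoters, at 0.612 and 0.395, thus lie under the members' median and that of Dio3os, at 1.10, lies above it. No promoter was matched for Sox2ot or Dlx1os, the other called members. Nothing about the calls is therefore read from CpG density.

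Dio3os was not called while its sense gene rose. Dio3os (chr12:110275385-110278172, minus strand) starts near Dio3, 896 bases away with no shared exon bases, at the end of the imprinted Dlk1-Dio3 domain; Dio3 encodes the deiodinase that inactivates thyroid hormone. Dio3os was at 8.33, 7.45, 7.22 and 8.90 CPM in Ezh2fl/null libraries and at 7.49, 7.60, 7.79 and 9.52 CPM in Ezh2fl/+ libraries. The groups overlap, and the log2 fold change of -0.03 had 95% limits of -0.26 to 0.21. Dio3 was at 40.6, 41.6, 44.3 and 45.5 CPM in Ezh2fl/null libraries and at 27.6, 28.6, 31.2 and 37.5 CPM in Ezh2fl/+ libraries. It did not overlap between groups and rose by 0.46 ± 0.08 (SE) on the log2 scale (edgeR adjusted p = 0.00197). The log2 ratio of Dio3os to Dio3 counts was -2.43 ± 0.147 in Ezh2fl/null libraries and -1.94 ± 0.0573 in Ezh2fl/+ libraries (SD, n = 4 each), without overlap; the difference of the ratio was not tested.

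Has2, the hyaluronan synthase, rose by 1.00 ± 0.16 (SE) on the log2 scale (edgeR adjusted p = 0.00059), with 6.66, 7.03, 5.84 and 4.57 CPM in Ezh2fl/null libraries and 2.47, 3.34, 2.81 and 3.34 CPM in Ezh2fl/+ libraries. Its antisense RNA Has2os was below the filter on low counts and was not tested. Has2os had 43 counts over the Ezh2fl/null libraries and 19 over the Ezh2fl/+ libraries, with 0.537, 1.25, 0.459 and 0.494 CPM in Ezh2fl/null libraries and 0.225, 0.327, 0.21 and 0.446 CPM in Ezh2fl/+ libraries. The groups do not overlap in CPM, and Ezh2fl/null library 2 was far above the other 3. In raw counts they do overlap, with 7 in Ezh2fl/null library 3 and 8 in Ezh2fl/+ library 4. With no filter its log2 fold change was 1.09 ± 0.44 (SE) with an edgeR adjusted p of 0.139. Has2os shares 182 exon bases with Has2, where reads cannot be told apart without strand. Mkln1os, the other member not tested, had 24 counts over the Ezh2fl/null libraries and 34 over the Ezh2fl/+ libraries.

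Six3os1, the most abundant antisense member, was at 403, 389, 393 and 430 CPM in Ezh2fl/null libraries and at 432, 427, 412 and 426 CPM in Ezh2fl/+ libraries. The RNA is known in mouse retina as a partner of Six3 function in cell specification. Its groups overlap, and the log2 fold change of -0.07 had 95% limits of -0.17 to 0.03. Six3, the homeobox gene on the other strand, shares 106 exon bases with it, had a log2 fold change of -0.07, and gave 0.0862 counts for each count of Six3os1. The log2 ratio of Six3os1 to Six3 counts was 3.55 ± 0.116 in Ezh2fl/null libraries and 3.54 ± 0.0561 in Ezh2fl/+ libraries (SD, n = 4 each).

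Pax6os1, opposite the eye field gene Pax6 whose enhancer drives the Cre, did not pass the threshold although its groups did not overlap. It was at 8.44, 8.08, 8.33 and 7.78 CPM in Ezh2fl/null libraries and at 9.81, 9.23, 10.8 and 9.36 CPM in Ezh2fl/+ libraries. The log2 fold change was -0.26 ± 0.09 (SE; edgeR adjusted p = 0.0755) and stayed uncalled in all 20 alternative settings, with adjusted p from 0.0622 to 0.247. Pax6 averaged 681 ± 6.55 CPM in Ezh2fl/null libraries and 729 ± 16.3 CPM in Ezh2fl/+ libraries (SD, n = 4 each), also without overlap, with a log2 fold change of -0.10 and an adjusted p of 0.236.

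Counting by name, 14 antisense rows have 13 sense genes in the table, all tested: Has2 and Dio3 rose, Dlx1 fell and 10 were not called. Over all genes tested, 11.8% were called in either direction, and nothing particular to the sense genes is read from their count. Only Dlx1 and Dlx1os were called as a pair. Of the genes that the annotation places beside members, Zbtb8a, a zinc finger gene that shares 264 exon bases with Zbtb8os on the other strand, rose by 0.38 ± 0.08 (SE) on the log2 scale (edgeR adjusted p = 0.00667), while Zbtb8os had 0.14 and was not called. The call for Zbtb8a was lost without the 2 libraries with the most lens crystallin counts (Ezh2fl/null 2 and Ezh2fl/+ 1; adjusted p = 0.0551). Slc3a2, the heavy chain of amino acid transporters, starts 106 bases from Snhg1 on the other strand and fell by 0.40 ± 0.05 (SE) on the log2 scale (edgeR adjusted p = 0.000153). Its level was 66.2 to 77.1 CPM in Ezh2fl/null libraries and 91.2 to 96.7 CPM in Ezh2fl/+ libraries, while Snhg1 ranged over 15.4 to 18.1 CPM in Ezh2fl/null libraries and 15.9 to 19.8 CPM in Ezh2fl/+ libraries. Whether members differed from these neighbours was not tested.

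**Figure D4:**
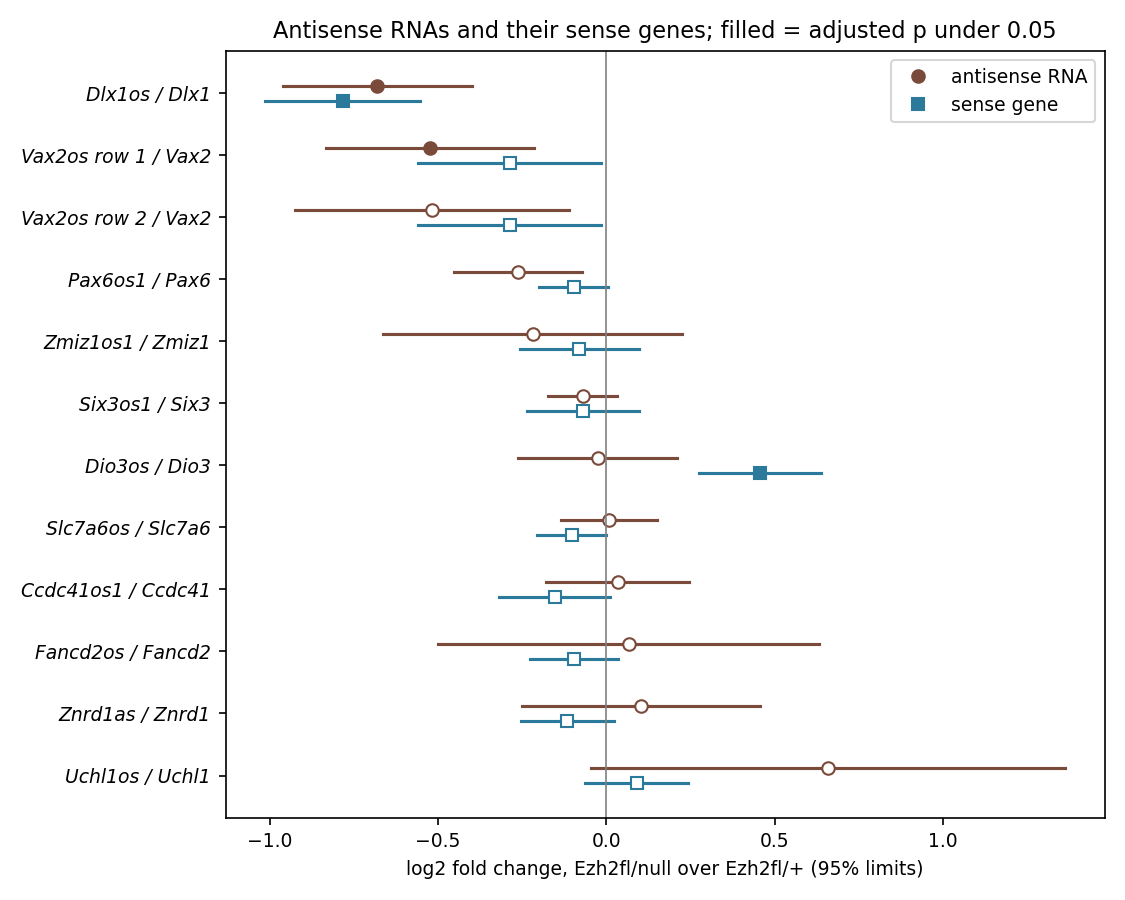
Log2 fold change (Ezh2fl/null over Ezh2fl/+) with 95% limits of the 12 tested antisense rows that have a sense gene by name (circles) and of that sense gene (squares); filled symbols have an adjusted p under 0.05. Both symbols are filled for Dlx1os and Dlx1, and the square of Dio3 stands at 0.46 while the circle of Dio3os stands at -0.03.

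The remaining antisense rows were not called. Slc7a6os, Ccdc41os1, Znrd1as, Fancd2os and Zbtb8os had log2 fold changes from 0.01 to 0.14, and Zmiz1os1 had -0.22 with 95% limits of -0.66 to 0.22. Slc7a6os, which is annotated as protein coding, averaged 21.5 ± 1.35 CPM in Ezh2fl/null libraries and 21.4 ± 0.813 CPM in Ezh2fl/+ libraries (SD, n = 4 each). Uchl1os had the highest positive value among all tested members, 0.66, on 47 counts over the Ezh2fl/null libraries and 28 over the Ezh2fl/+ libraries, with 95% limits of -0.04 to 1.36 (edgeR adjusted p = 0.245).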

How the data were processed

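The authors deposited whole-number counts per gene and library, FPKM values, a log2 ratio of the groups and a score for the adjusted p on an unnamed scale, in a single table. The submitters' processing notes name Novoalign 2.08.01, DESeq2 and the mm10 build; which counter and annotation were used, and whether strand was, is not stated in them or in the labels. The lowest row sum was 18, so rarer genes are not in the table. Counts were tested with edgeR 4.0.16 (R 4.3.3): TMM normalization, filterByExpr with a minimum count of 10, glmQLFit, glmQLFTest, no covariate, and Benjamini-Hochberg adjustment over the 15014 genes left. Standard errors follow from the F statistic. The authors' FPKM were used only to compare levels between genes, and the log2 ratio and score columns were not used. Positions came from GENCODE M21: 25 rows matched by identifier, 4 by symbol, 2 took RefSeq positions and 1 has none. Shared exon bases are those of M21, and the models behind the deposited counts differ from it for some rows. The length implied by counts and FPKM was 13354 bases for Six3os1, against 11884 exon bases in M21. For Sox2ot it was 8638 bases, against 11594. Members and lists were chosen with earlier results of these data known. Named are all called members, the nuclear class and Gas5, the 4 most abundant of each class, sense genes that were called with their members, and called list genes; others are named for a low or near-threshold value and were chosen after their values were seen. Alternatives were DESeq2 1.42.0, limma-voom 3.58.1, other scalings and filters, sex, replicate block, and each library left out. The test was checked on simulated counts. Counts within groups differed by more than sampling noise in every pair of libraries. A retinal marker gene is not reported here.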

Additional observations from a re-analysis of the deposited data

Results flagged for a closer look

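A single library stood apart from the other 3 of its group in 4 of 90 groups checked (45 genes in each of the 2 genotypes), and chance flags about 1 group in 20. Miat was at 56.8 CPM in Ezh2fl/null library 4, against 47.9 to 48.8 CPM in the others. Miat was also at 50.1 CPM in Ezh2fl/+ library 3, against 61.0 to 61.3 CPM in the others of that group. Has2os was at 1.25 CPM in Ezh2fl/null library 2, against 0.459 to 0.537 CPM, and Dio3os was at 9.52 CPM in Ezh2fl/+ library 4, against 7.49 to 7.79 CPM.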

How the results depend on the processing

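No named result reversed in 20 alternative settings, 18 of them planned and 2 (without the 2 libraries with the most lens crystallin counts, and mitochondrial rRNA as a covariate) chosen after seeing the data; members within 1 standard error of 0 and not called were taken to have no direction. The members' median log2 fold change ran from -0.06 to 0.02. The number called higher was 0 with male libraries alone and 1 otherwise. The number called lower was 4 with sex as a covariate and 4 with male libraries alone, and 1 to 3 with each library left out, being 1 without Ezh2fl/null library 1 and without Ezh2fl/+ library 4. Ezh2 was called higher with DESeq2 (0.20, adjusted p = 0.0423) and without Ezh2fl/null library 4, the log2 fold change running from 0.16 to 0.26 with each library left out. Over all genes, 520 were lower and 1253 higher, or 70.7% of calls; library size alone gave 273 lower and 1289 higher (82.5%), sex as a covariate 246 and 795, male libraries alone 255 and 800, the lens libraries left out 323 and 996, and the lowest with a library left out was 329 lower, without Ezh2fl/+ library 3. The causes were not tested. Whether the replicate numbers pair the libraries was not settled: same-numbered libraries correlated in their deviations at 0.18, -0.07, -0.01 and 0.39 over 5000 genes. Ezh2fl/null library 4 matched Ezh2fl/+ library 4 best, and the other Ezh2fl/null libraries each matched a control of another number best. With the replicate number as a block, 1 member was called higher and 2 lower, Ezh2 had 0.21 (adjusted p = 0.025), and 1179 genes were higher and 497 lower. Vax2 was called under the block (adjusted p = 0.0484). With sex as a covariate or male libraries alone, Dlx2 (-0.75 in both), Vax1 (0.66 in both) and Kdr (-0.19 in both) lost their calls, with adjusted p from 0.0578 to 0.0967; Vax1 also lost its call without the lens libraries (0.56, adjusted p = 0.079). Depth limits Neat1, Mir22hg, Uchl1os, Fancd2os and both members not tested.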
